A study of Mus musculus with 10 samples.

Results

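Villus tip enterocyte genes are transcripts known to be concentrated in the absorptive cells nearest to the end of the intestinal villus. The set described here holds 6 genes, Nt5e, Ada, Slc28a2, Creb3l3, Klf4 and Egfr, which were taken by name from a table of 45707 rows. All 6 were listed in that table, and all 6 passed the filter on low values that left 14301 genes for testing. The libraries were made from whole jejunal tissue, so the position of a transcript on the villus was not measured, and fewer cells of a type cannot be told apart from less RNA per cell.

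RNA from jejunum was sequenced for 10 mice, 5 of genotype Vil-Cre, which served as controls, and 5 of genotype Vil-Cre:NDI1, with 1 library per mouse. All 10 mice were male littermates aged 8 to 12 weeks that carried Villin-Cre, a transgene that drives recombination in intestinal epithelial cells, and were fasted for 16 to 18 h before an oral gavage of water and collection of tissue 1 h later. Vil-Cre:NDI1 mice also carried NDI1, the yeast NADH dehydrogenase that can take over electron entry from mammalian complex I, behind a lox-stop-lox sequence at the ROSA26 locus. NDI1 is therefore expected along the whole epithelium and not at the villus tip alone. The comparison asks whether villus tip transcripts differ when NDI1 is present without any drug.

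Enterocytes are born in crypts, migrate up the villus and are shed at its tip, and their transcription changes on the way. Cells low on the villus make antimicrobial proteins, cells in the middle make carrier proteins for sugars and amino acids, and cells at the tip make enzymes and carriers of purine nucleosides together with genes of lipoprotein handling and adhesion. At the tip, the surface enzyme CD73 (Nt5e) turns AMP into adenosine, adenosine deaminase (Ada) turns adenosine into inosine, and the sodium-coupled carrier CNT2 (Slc28a2) takes up purine nucleosides. Creb3l3 encodes CREB-H, a membrane-bound transcription factor of lipid metabolism in intestine and liver. Klf4 encodes a zinc finger transcription factor of differentiated epithelium, and Egfr encodes the receptor for epidermal growth factor.

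In the GENCODE M21 annotation of GRCm38, Ada (ENSMUSG00000017697) lies on the minus strand of chromosome 2 from 163726584 to 163750239, and Slc28a2 (ENSMUSG00000027219) on the plus strand of the same chromosome from 122426477 to 122461137. Nt5e (ENSMUSG00000032420) lies on the plus strand of chromosome 9 from 88327197 to 88372092. Creb3l3 (ENSMUSG00000035041) lies on the minus strand of chromosome 10 from 81084324 to 81098874. Klf4 (ENSMUSG00000003032) lies on the minus strand of chromosome 4 from 55527143 to 55532466, and Egfr (ENSMUSG00000020122) on the plus strand of chromosome 11 from 16752203 to 16918158. The antisense gene Egfros overlaps Egfr with 0 shared exon bases, and the pseudogene Gm14086 lies inside Slc28a2, also with 0 shared exon bases. Slc28a2 has a close paralog, Slc28a2b (listed as Gm14085), and 18% of the 100-base windows of Slc28a2 transcripts occur unchanged in that gene, so reads from these windows could have been assigned to either. No 100-base window of Slc28a2 was found in Slc28a1 or Slc28a3.

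The sequences just before the start sites are shown for Ada and Slc28a2, and for Creb3l3, which had the smallest p of the 6 genes. Ada and Slc28a2 were correlated over the 10 mice (Pearson r 0.78, permutation p adjusted over the pairs 0.0413). With values centred within genotype that adjusted permutation p was 0.0536. The sequences are from RefSeq (GRCm38.p6) and are written 5′ to 3′ on the strand of the gene. Those of Ada and Slc28a2 end at the base before the start site. The 2 bases of the Creb3l3 window nearest to its start were left out because they lie in exons of GENCODE M21. Capitals mark a match to a searched motif. The Ada sequence is chr2:163750240-163750489 on the minus strand, the Slc28a2 sequence is chr2:122426185-122426434 on the plus strand, and the Creb3l3 sequence is chr10:81098875-81099122 on the minus strand.
Ada: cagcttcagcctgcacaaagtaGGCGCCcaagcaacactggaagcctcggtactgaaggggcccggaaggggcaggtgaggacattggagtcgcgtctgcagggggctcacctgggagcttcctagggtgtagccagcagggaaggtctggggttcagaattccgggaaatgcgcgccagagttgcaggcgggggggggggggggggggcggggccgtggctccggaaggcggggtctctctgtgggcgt
Slc28a2: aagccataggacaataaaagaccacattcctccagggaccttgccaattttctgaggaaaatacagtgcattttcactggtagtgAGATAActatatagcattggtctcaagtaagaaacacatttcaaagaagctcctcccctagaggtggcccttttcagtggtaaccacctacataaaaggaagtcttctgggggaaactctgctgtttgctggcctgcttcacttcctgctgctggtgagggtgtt
Creb3l3: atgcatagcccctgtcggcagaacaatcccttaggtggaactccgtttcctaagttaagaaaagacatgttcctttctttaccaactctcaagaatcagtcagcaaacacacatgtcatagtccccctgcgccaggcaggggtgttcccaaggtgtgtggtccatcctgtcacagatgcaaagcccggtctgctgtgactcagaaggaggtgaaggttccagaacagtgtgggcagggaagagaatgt
Motifs were searched on both strands in the 250 bases before each start site, and each share is of 32841 mouse promoters. Ada held GGCGCC, a motif of BMP-SMAD factors found in 9.59% of promoters, at 228 to 223 bases before its start. Slc28a2 held AGATAA, a motif of GATA factors found in 9.99% of promoters, at 165 to 160 bases before its start. An inner start site of Creb3l3 also had an AGATAA match, at 138 to 133 bases before it, while the outer start site printed here had none of the searched motifs. The searched motifs also included TATAAA (12.4% of promoters), the cyclic AMP response element core TGACGT (6.47%) and the HNF4 motif CAAAGTCCA (0.384%). None of the searched motifs was in the window of Nt5e, Klf4 or Egfr. However, all 250 bases of the Nt5e window and 101 bases of the inner Creb3l3 window lie in exons of GENCODE M21. The lack of a match in the Nt5e window therefore says little about sequence upstream of that gene. The share of G and C was 67.2% in the Ada window, 45.2% in the Slc28a2 window and 50.8% in the Creb3l3 window, against a median of 52.4% over all promoters.

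Sequencing gave 10145705 to 12371530 reads on genes per library, and the values are normalized counts, whole reads divided by 1 size factor for each library. NDI1 had 0 to 1 reads in Vil-Cre mice and a normalized count of 1566 ± 598 (SD, n = 5) in Vil-Cre:NDI1 mice, so each library matched its genotype label. Villin (Vil1), which marks intestinal epithelium, was at 40711 ± 4805 (SD, n = 5) and 43721 ± 3185 (SD, n = 5). Of 11 enterocyte markers, 11 had a mean log2 difference above 0 in Vil-Cre:NDI1 mice and 0 passed the adjusted threshold; their summed normalized counts were 274681 to 410458 in Vil-Cre mice and 369611 to 543219 in Vil-Cre:NDI1 mice, with Vil-Cre 5 lowest. All 7 goblet cell markers, all 5 tuft cell markers, all 5 fibroblast markers, the 4 B and plasma cell markers tested and the 3 hepatocyte markers tested had a difference below 0, again with 0 past the adjusted threshold. The hepatocyte list summed to 23.3 to 1169 in Vil-Cre mice and 21.6 to 76.3 in Vil-Cre:NDI1 mice, with Serpina1a, Fgb and Ahsg at 0 in at least 1 mouse and Alb and Apoa2 at 0 in none.

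The 6 genes spanned a wide range of abundance in jejunum. Per kilobase of exon, Ada had the highest level at 6804 ± 2247 (SD, n = 10 mice) normalized counts, rank 84 of 14248 genes. Creb3l3 followed at 2222 ± 349 per kilobase, then Slc28a2 at 1542 ± 393 and Klf4 at 1471 ± 297. Nt5e stood at 378 ± 99.9 per kilobase, and Egfr was lowest at 35.7 ± 5.65, rank 7930. The ranges over the 10 mice did not overlap between Ada and Creb3l3 or between Nt5e and Egfr. They overlapped between Creb3l3 and Slc28a2, although Creb3l3 was higher in 10 of 10 mice. Slc28a2 was above Klf4 in only 6 of 10 mice, so these neighbours did not differ beyond their spread. The exon length matters most for Nt5e, whose level was 814 per kilobase when its longest transcript was taken in place of all exons, and its range then overlapped that of Klf4.

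**Figure D1:**
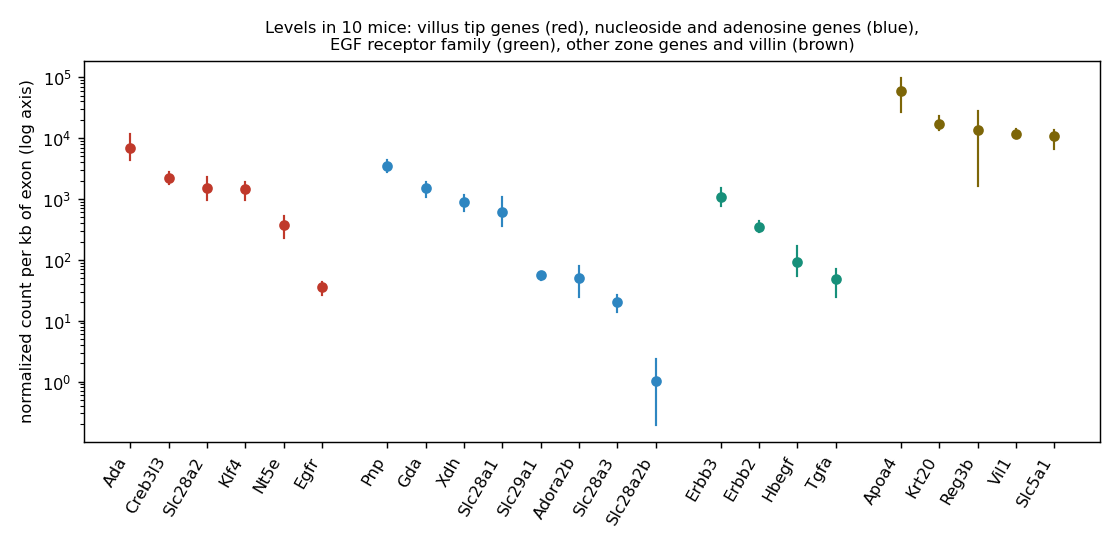
Level of each gene in normalized counts per kilobase of exon on a log axis. The point is the mean of 10 mice, and the line runs from the lowest to the highest mouse. Red marks the 6 villus tip genes of the set. Blue marks nucleoside carriers and purine or adenosine genes, and green the EGF receptor family and ligands. Brown marks villin, the further tip genes Apoa4 and Krt20, the middle villus gene Slc5a1 and the lower villus gene Reg3b. Of the 6 genes, Ada is the highest at 6804 and Egfr the lowest at 35.7.

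Between genotypes, 0 of the 6 genes passed an adjusted p under 0.05 with limma, and in the whole table the NDI1 transgene alone did, which is 0.00699% of the genes tested. At an unadjusted p under 0.05 there were 2 of the 6, Creb3l3 with higher and Egfr with lower values in Vil-Cre:NDI1 mice, where 4.24% of all genes were below that level. The genotypes overlapped in all 6, and 0.699% of all genes tested had no overlap. The log2 difference (Vil-Cre:NDI1 minus Vil-Cre) was above 0 in 5 genes and below 0 in Egfr, with a median of 0.31, against 0.0052 over all genes tested. Where no other test is named, an adjusted p of a genotype difference is from limma on log2(normalized count + 1), and each standard error is of that log2 difference.

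**Figure D2:**
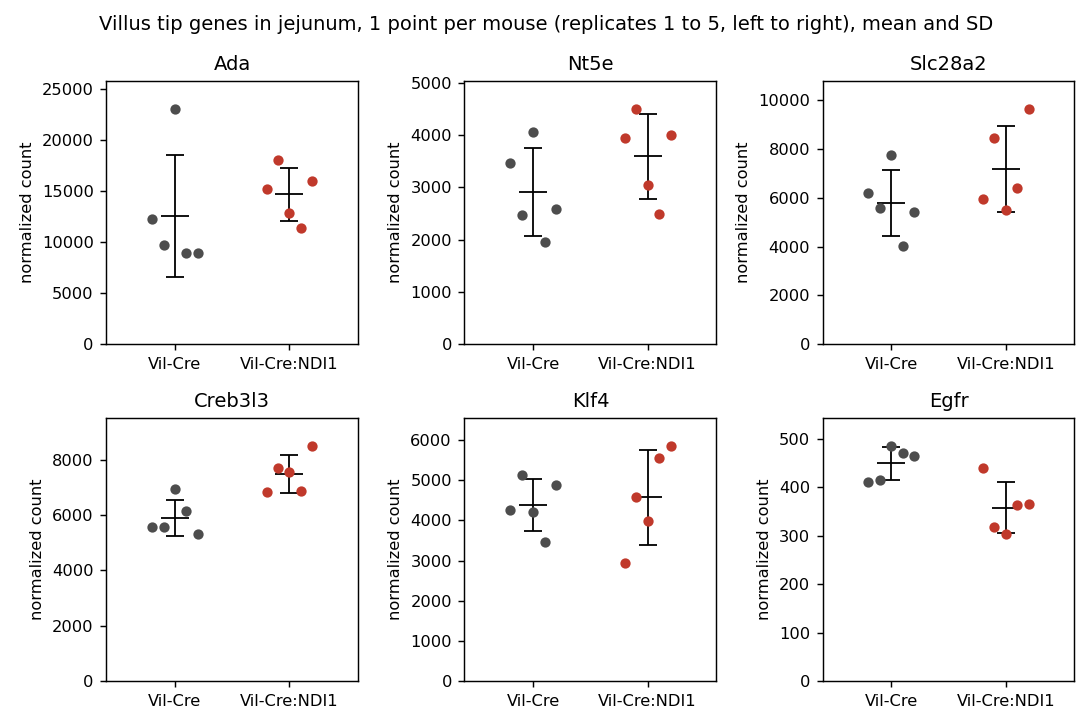
Normalized counts of the 6 villus tip genes, with 1 point per mouse in replicate order and the mean ± SD of each genotype (n = 5). Ada in Vil-Cre 3 stands at 23002, above the other 4 Vil-Cre mice at 8886 to 12292, while Egfr in 4 of 5 Vil-Cre:NDI1 mice lies below every Vil-Cre mouse.

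Nt5e, the adenosine-forming enzyme, had normalized counts of 3466, 2481, 4049, 1949 and 2590.2 in Vil-Cre mice 1 to 5. In Vil-Cre:NDI1 mice 1 to 5 they were 3949, 4494, 3038, 2483 and 4003. Vil-Cre 4 was the lowest mouse and Vil-Cre:NDI1 2 the highest, and the genotypes overlapped over most of their range. The means were 2907 ± 839 and 3593 ± 814 (SD, n = 5), a log2 difference of 0.32 (SE 0.21, 95% interval -0.14 to 0.78, adjusted p = 0.998).

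Ada, which removes adenosine, was at 12292, 9678, 23002, 8886 and 8930.4 normalized counts in Vil-Cre mice. It was at 15163, 18012, 12889, 11419.7 and 15937 in Vil-Cre:NDI1 mice. Vil-Cre 3 had the highest count of all 10 mice, and the other 4 Vil-Cre mice were lower than 4 of the 5 Vil-Cre:NDI1 mice. The means were 12558 ± 6002 and 14684 ± 2586 (SD, n = 5), with a log2 difference of 0.31 (SE 0.25, 95% interval -0.23 to 0.85, adjusted p = 0.998). Without Vil-Cre 3 the difference was 0.56 (adjusted p = 0.909 with limma), and without Vil-Cre 4 it was 0.21.

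Slc28a2, the purine nucleoside carrier of the brush border, was at 6204, 5575, 7747, 4020.1 and 5430.1 normalized counts in Vil-Cre mice. Its values in Vil-Cre:NDI1 mice were 5931, 8433, 5518, 6403 and 9628. Vil-Cre:NDI1 2 and 5 lay above every Vil-Cre mouse, and the other 3 lay within the Vil-Cre range. The means were 5795 ± 1352 and 7183 ± 1767 (SD, n = 5), a log2 difference of 0.31 (SE 0.19, 95% interval -0.11 to 0.73, adjusted p = 0.998). It was 0.42 without Vil-Cre 3, 0.18 without Vil-Cre 4 and 0.19 without Vil-Cre:NDI1 5. Leaving out Vil-Cre 3 and Vil-Cre 4 moved Nt5e in the same directions, to 0.45 and 0.19.

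The Slc28a2 carrier belongs to a family of concentrative nucleoside transporters whose other members were less abundant. Slc28a1, the carrier of pyrimidine nucleosides, was at 622 ± 238 (SD, n = 10) normalized counts per kilobase of exon, and Slc28a3, a carrier of both classes, at 20.1 ± 4.47. The paralog Slc28a2b had 1 to 12 reads per library and did not pass the filter, so few reads were assigned to it although it shares sequence with Slc28a2. Slc28a1 had 1214 to 3176 normalized counts in Vil-Cre mice and 1059.6 to 2471 in Vil-Cre:NDI1 mice. Its highest mouse was again Vil-Cre 3, and the groups overlapped except for Vil-Cre:NDI1 1 and 4, which lay below every Vil-Cre mouse (log2 difference 0.055, SE 0.31, adjusted p = 0.998).

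Of 26 other genes of adenosine and purine handling, 24 were tested and 0 passed the adjusted threshold in either direction, with a median log2 difference of -0.0061. At an unadjusted p under 0.05 there was 1 of 24, a share close to the 4.24% of all genes, namely Slc29a1, which encodes the equilibrative nucleoside carrier ENT1. Slc29a1 was at 244 ± 5.88 (SD, n = 5) normalized counts in Vil-Cre mice, from 234 to 249, and at 203 ± 17.9 (SD, n = 5) in Vil-Cre:NDI1 mice, from 188 to 222. The genotypes did not overlap, as in 0.699% of all genes, and the adjusted p was 0.998 (log2 difference -0.27, SE 0.092). Ampd2, an AMP deaminase, was next by p (log2 difference -0.33, SE 0.17). The most abundant gene of the list per kilobase was Pnp, a purine nucleoside phosphorylase that acts on inosine, at 2731 ± 340.4 and 2464 ± 267 (SD, n = 5) normalized counts. Of the 100-base windows of Pnp transcripts, 33% occur unchanged in Pnp2, so reads from them could have been assigned to either gene.

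Creb3l3, the lipid-responsive transcription factor, was at 5559, 5571, 6936, 6152 and 5304 normalized counts in Vil-Cre mice. In Vil-Cre:NDI1 mice it was at 6831, 7724, 7570.0, 6871 and 8507. All 5 Vil-Cre:NDI1 mice were above the Vil-Cre mean, and 3 of them were above every Vil-Cre mouse, the overlap coming from Vil-Cre 3. The means were 5904 ± 655 and 7501 ± 691 (SD, n = 5), a 1.27-fold difference. The log2 difference of 0.35 (SE 0.097, 95% interval 0.13 to 0.56) had a two-sided exact permutation p of 0.0238 and an adjusted p of 0.998 with limma, so it did not pass the threshold over the table. DESeq2 on the recovered reads of all 10 libraries gave Creb3l3 an adjusted p of 0.106. On the 8 libraries without Vil-Cre 3 and Vil-Cre 4 it gave a log2 difference of 0.45 with an adjusted p of 0.000582, in a fit that called 1.77% of the genes with an adjusted p. The edgeR fit on the same 8 libraries gave 0.45 with an adjusted p of 0.375 and called 0 of the 6 genes, and over the table it called 0.00674% of genes. Vil-Cre 3 had the highest Creb3l3 value of its genotype and Vil-Cre 4 the next. These libraries were left out for their size factors near 1, although their reads could be recovered like those of the others.

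The 11 enterocyte markers had a mean log2 difference of 0.26. Without Vil-Cre 5 this mean was 0.12, while Creb3l3 was at 0.31, Nt5e at 0.29, Slc28a2 at 0.29 and Ada at 0.22. When each library was scaled to these markers, the median of all genes moved to -0.25. On that scale Creb3l3 differed by 0.089, Nt5e by 0.063, Ada by 0.054 and Slc28a2 by 0.050. Klf4 differed by -0.23 and Egfr by -0.59, and 0 of the 6 passed the adjusted threshold with limma. This scaling divides every gene of a library by the same factor and so moves the differences of all genes nearly alike. Relative to the median of all genes, the differences of the 6 genes were therefore nearly the same on both scales by construction. The part of enterocyte content in the genotype differences was not tested.

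**Figure D3:**
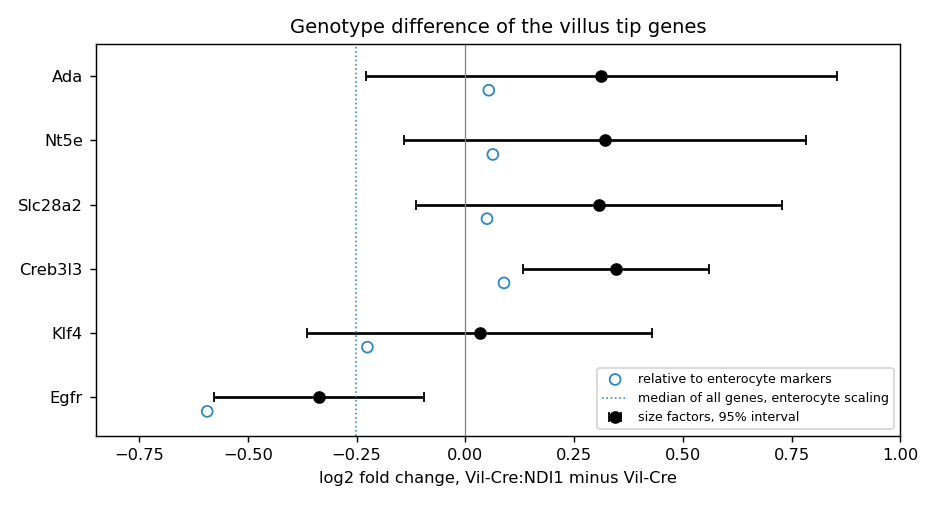
Log2 difference between Vil-Cre:NDI1 and Vil-Cre mice for the 6 villus tip genes; filled points, size factor scaling with the 95% interval from limma; open points, scaling to 11 enterocyte markers; dotted line, the median of all genes at -0.25 on the enterocyte scale. The intervals of Creb3l3 and Egfr exclude 0 before adjustment, and the open points of 4 genes lie between 0.050 and 0.089.

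Genes that act with or downstream of CREB-H gave 0 of 8 tested past the adjusted threshold, with a median log2 difference of 0.22. Ppara, the nuclear receptor of fatty acid oxidation, was at 352 ± 147 and 436 ± 71.4 (SD, n = 5) normalized counts in Vil-Cre and Vil-Cre:NDI1 mice (log2 difference 0.39, SE 0.25). Mbtps1, the site-1 protease that cleaves CREB-H, was at 917 ± 87.4 and 849 ± 68.6 (SD, n = 5). The groups overlapped in both genes. Apoa1, an apolipoprotein of high-density lipoprotein, was the most abundant of the list, with a log2 difference of 0.15 (SE 0.17). Fgf21, a hormone induced by CREB-H in liver, was at 0 reads in all 10 libraries, which allows up to 3 reads in each.

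Klf4, the zinc finger factor, was at 4264, 5137, 4198, 3469 and 4873 normalized counts in Vil-Cre mice. It was at 2939, 4589, 3982, 5543 and 5855 in Vil-Cre:NDI1 mice. The lowest and the highest mouse were both Vil-Cre:NDI1, and the Vil-Cre mice lay between them. The means were 4388 ± 650.3 and 4581 ± 1184 (SD, n = 5), a log2 difference of 0.033 (SE 0.18, 95% interval -0.36 to 0.43, adjusted p = 0.998). The sign of this difference turned under 6 of the 21 alternative settings other than scaling to equal totals or to enterocyte markers.

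Among 11 other KLF genes, 0 passed the adjusted threshold and 5 had a difference above 0. Klf13 had the smallest p, at 888 ± 99.1 and 1045 ± 139 (SD, n = 5) normalized counts (log2 difference 0.23, SE 0.11), and Klf9 the next (log2 difference -0.19, SE 0.12). Klf6 was the most abundant per kilobase, at 734 normalized counts against 1471 for Klf4. BMP signalling rises towards the villus tip, and 0 of the 19 tested genes of that pathway passed, with a median log2 difference of -0.037. Bmpr1a, a BMP receptor, differed by 0.18 (SE 0.095) and Smad6, an inhibitor that BMP induces, by 0.30 (SE 0.19). Id1, a BMP target, was at 829.9 ± 165 and 819 ± 249 (SD, n = 5) normalized counts.

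Egfr, the growth factor receptor, was at 412, 416, 486, 471 and 464 normalized counts in Vil-Cre mice. In Vil-Cre:NDI1 mice it was at 441, 319, 304, 363 and 365. Every mouse but Vil-Cre:NDI1 1 in that genotype was below every Vil-Cre mouse. The means were 449.8 ± 33.7 and 358 ± 53.4 (SD, n = 5), and the ratio from the fit on the log2 scale was 0.792 with a 95% interval of 0.67 to 0.937. The log2 difference of -0.34 (SE 0.11) had a two-sided exact permutation p of 0.0238 and an adjusted p of 0.998 with limma, and it ran from -0.41 to -0.28 with each mouse left out in turn. Egfr had 311 to 485 reads per library, so counting error alone gave a coefficient of variation of 4.97%, against 11.1% observed within genotypes.

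Egfr is also expressed in stromal cells and hepatocytes. All 5 fibroblast markers and the 3 hepatocyte markers tested had a difference below 0 with 0 past the adjusted threshold, while 4 of 5 endothelial markers had one above 0. The 5 fibroblast markers summed to 1475 to 2258 normalized counts in Vil-Cre mice and 1522 to 1925 in Vil-Cre:NDI1 mice, with none at 0 in any mouse. Their median log2 difference was -0.17, and the lowest was that of Pdgfra, named after its values were seen, at -0.35 (SE 0.12, adjusted p = 0.998 with limma). Cdh5, an endothelial marker also named after its values were seen, differed by -0.48 (SE 0.19, adjusted p = 0.998 with limma). It was the only endothelial marker below 0, and the 5 ran from -0.48 to 0.35 with a median of 0.050. Of 5 smooth muscle markers, 4 had a difference below 0 and 1 above, with a median of -0.065. The hepatocyte list summed to 1169, 132, 419, 23.3 and 775 in Vil-Cre mice 1 to 5, where Egfr was at 412, 416, 486, 471 and 464. In Vil-Cre:NDI1 mice 1 to 5 it summed to 21.6, 27.3, 61.0, 71.5 and 76.3, with Egfr at 441, 319, 304, 363 and 365. The relation of Egfr to this sum was not tested. The part of these cell types in the Egfr difference was not tested.

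Other genes of the EGF receptor pathway gave 0 of 15 tested past the adjusted threshold, 9 with a difference above 0 and 6 below. The receptor family was dominated by Erbb3, a partner receptor, at 1068 ± 235 (SD, n = 10) normalized counts per kilobase of exon, followed by Erbb2 at 346 ± 50.3, against 35.7 for Egfr. Erbb4 was at 0 reads in all 10 libraries, which allows up to 3 reads in each. Btc, the ligand betacellulin, had the smallest p, at 32.0 ± 10.9 and 41.4 ± 3.29 (SD, n = 5) normalized counts (log2 difference 0.41, SE 0.23). Lrig3, of a family of receptor regulators, was next (log2 difference 0.14, SE 0.11).

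The 6 genes differed in how much they varied between mice of 1 genotype. Within genotypes, the coefficient of variation was 33.9% for Ada, 25.4% for Nt5e, 24.2% for Slc28a2 and 21.3% for Klf4, but 11.1% for Egfr and 10.0% for Creb3l3. Counting error accounts for 0.855% to 1.75% in each gene except Egfr. The mice that were high for Ada tended to be high for Nt5e and Slc28a2 as well, in both genotypes.

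**Figure D4:**
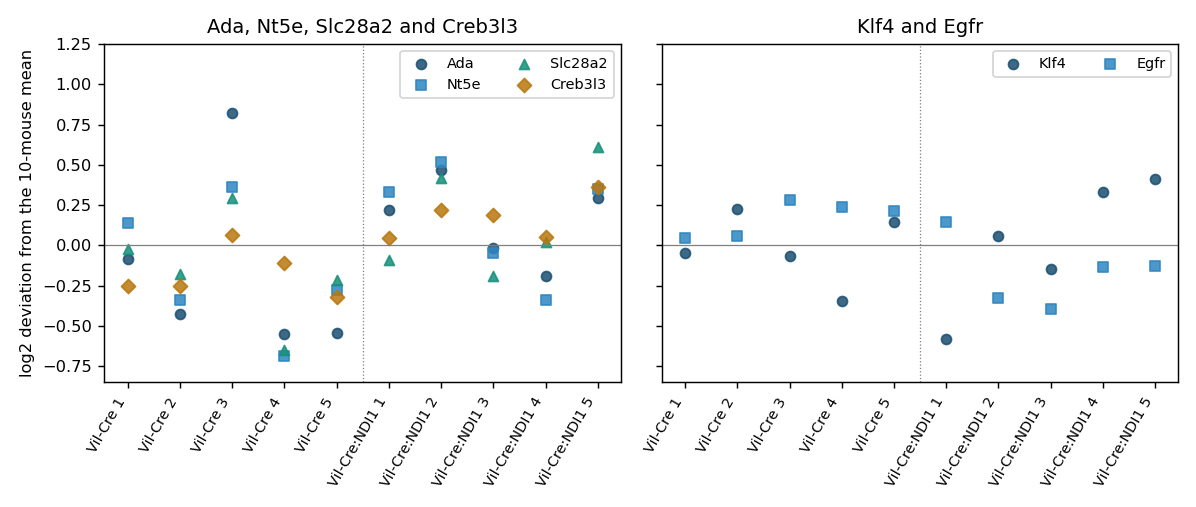
Deviation of each mouse from the mean of 10 mice on the log2 scale; left, Ada, Nt5e, Slc28a2 and Creb3l3; right, Klf4 and Egfr; the dotted line separates the 5 Vil-Cre mice from the 5 Vil-Cre:NDI1 mice. Ada, Nt5e and Slc28a2 are all low in Vil-Cre 2, 4 and 5 and all high in Vil-Cre 3, Vil-Cre:NDI1 2 and Vil-Cre:NDI1 5.

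Over the 10 mice, Ada and Nt5e were correlated with a Pearson r of 0.89 (permutation p = 0.00075, adjusted over 15 pairs 0.0112) and a Spearman rho of 0.94 (permutation p = 0.00023, adjusted 0.00345). The r was 0.91 without the 2 mice farthest from the median of Ada, Vil-Cre 3 and Vil-Cre:NDI1 2, and 0.87 with values centred within genotype. The relation kept an adjusted p under 0.05 in all 13 alternative settings, where r ran from 0.84 to 0.93. Nt5e and Slc28a2 had a Pearson r of 0.83 (permutation p = 0.00291, adjusted 0.0218) and a rho of 0.77 (permutation p = 0.0126, adjusted 0.0629). Without Vil-Cre 4 and Vil-Cre:NDI1 2 this r was 0.64, and centred within genotype it was 0.78 with an adjusted permutation p of 0.0536. Ada and Slc28a2 had a Pearson r of 0.78 (permutation p = 0.00826, adjusted 0.0413) and a rho of 0.81 (permutation p = 0.00712, adjusted 0.0534). Its r was 0.74 without Vil-Cre 3 and Vil-Cre:NDI1 2 and 0.74 centred within genotype, with an adjusted permutation p of 0.0536, and it kept its place past the threshold in 3 of 13 alternative settings.

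**Figure D5:**
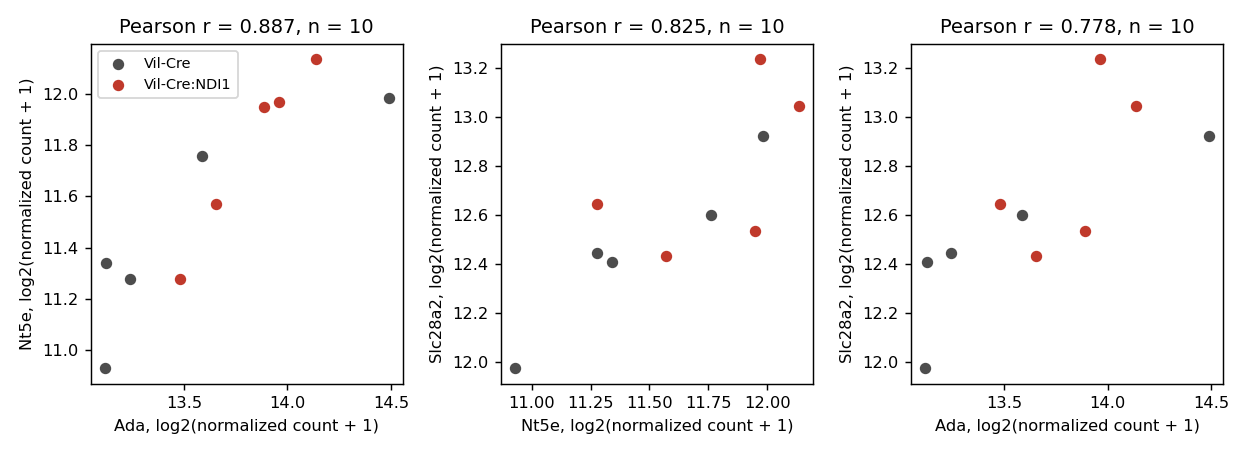
Log2(normalized count + 1) of Ada, Nt5e and Slc28a2 against each other, with 1 point per mouse; grey, Vil-Cre; red, Vil-Cre:NDI1. Pearson r is 0.887 for Ada and Nt5e, 0.825 for Nt5e and Slc28a2 and 0.778 for Ada and Slc28a2, each over 10 mice.

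The other 12 pairs had a Pearson r from -0.61 to 0.67 and none passed the adjusted threshold. The lowest was that of Egfr and Creb3l3 at -0.61 (rho -0.50; permutation p = 0.0626 and 0.145, adjusted 0.157 and 0.31), and it was -0.029 once the values were centred within genotype. Klf4 had an r of -0.063 with Ada and -0.032 with Nt5e, both with an adjusted permutation p above 0.9.

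Creb3l3 and the 11 enterocyte markers all had a log2 difference above 0, and their relation within genotypes was not tested. Over the 10 mice of both genotypes together, Creb3l3 was correlated with these markers. Its Pearson r with the mean log2 value of the 11 markers was 0.78 (permutation p = 0.00159, adjusted over 24 relations 0.0191) and its rho 0.87 (permutation p = 0.00231, adjusted 0.0277). The r was 0.72 without Vil-Cre 5 and Vil-Cre:NDI1 5, the mice at the ends of the marker range. With 7 middle villus genes, carriers of sugars, peptides and amino acids, Creb3l3 had an r of 0.74 (permutation p = 0.00131, adjusted 0.0191) and a rho of 0.88 (permutation p = 0.00161, adjusted 0.0277). Ada, Nt5e, Slc28a2, Klf4 and Egfr had no relation past the adjusted threshold with these lists, with lower villus genes or with the reads per library, the largest r being 0.60 for Ada with the enterocyte markers. Whether Creb3l3 differed from the other genes in this relation was not tested.

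The genes with the pattern most like each of the 6 over the 10 mice were found by Pearson r among 10898 genes. These values describe the same 10 libraries and carry no test. For Ada they were 1190002N15Rik (0.94), Tmem38a (0.94) and Tnk1 (0.93), and Nt5e ranked 10. For Nt5e they were Dnajc19 (0.90), Rpl36a (0.89) and Got1 (0.89), with Ada at rank 4 and Slc28a2 at rank 25. Slc28a2 was closest to Pgm1 (0.94), 2010107G12Rik (0.94) and Acsl3 (0.92), and Nt5e ranked 53 and Ada 114. Creb3l3 was closest to 2310022B05Rik (0.94), Cox15 (0.94) and Atp6v1d (0.93), and no other villus tip gene ranked above 553. Klf4 was closest to Ccdc68 (0.96), Ptprs (0.96) and Jund (0.95), and Egfr to Lrrc40 (0.90), Gmfg (0.90) and Tox4 (0.86).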

How the data were processed

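Per the study's methods, the authors passed single-end reads through trimGalore!, mapped them with STAR against GRCm38 plus NDI1, and used Salmon for the assignment to genes. The deposited values are a signal: the whole reads of a library over its DESeq2 size factor. In each library 100% of non-zero values were whole multiples (tolerance 0.001) of the value of 1 read, so reads could be recovered. That value is close to 1 in Vil-Cre 3 (1.00184) and Vil-Cre 4 (1.01109), but large counts tell reads from normalized counts there as well. For Vil1, 35002 reads gave 35066.5 in Vil-Cre 3, and 44351 reads gave 44842.9 in Vil-Cre 4. The annotation release and the strand of counting are not given in the sources used here. Genotypes were compared with limma 3.58.1 (R 4.3.3) on log2(value + 1) (eBayes, variance trend, Benjamini-Hochberg adjustment at 0.05). Tested genes had 10 or more normalized counts in 5 or more mice. Log2 differences on this scale understate the change of low genes. DESeq2 1.42.0 and edgeR 4.0.16 on recovered reads were alternatives, and the scripts were tested on simulated data. Permutation tests of single genes used every assignment of the mice, and correlations used 100000 resamples. The 6 genes and all gene lists were chosen with earlier results of these data known. Named genes are the 6, the SLC28 family, in each list the 2 with the smallest p and the most abundant per kilobase, the 3 nearest patterns of each of the 6, and NDI1 and Vil1 as checks. Of 45707 rows, 45143 matched GENCODE M21. Replicate numbers did not pair the mice. Intervals and limits from counts cover counting error only.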

Additional observations from a re-analysis of the deposited data

Results flagged for a closer look

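In 8 of 102 groups of 5 mice examined, 1 library stood apart from the other 4, with a gap to its nearest neighbour that took more than 0.71 of the range of its group, and chance gives about 5.1. Without the genes chosen because their pattern followed 1 of the 6, it was 6 of 66, and chance gives about 3.3. The groups share the same 10 mice and are not independent, so these counts carry no test. Ada stood apart in Vil-Cre 3, with a gap of 0.759 of the range (23002 normalized counts, the other 4 Vil-Cre mice being at 8886 to 12292). The same mouse stood apart for Slc28a1, a pyrimidine nucleoside carrier (gap 0.777; 3176 against 1214 to 1651), and for Tmem38a, a gene chosen because it followed Ada over these mice (gap 0.848; 93.2 against 50.5 to 57.0). Slc5a1, the sodium-coupled glucose carrier of the middle villus, was low in Vil-Cre 5 (gap 0.735; 27464 against 40962 to 45819), the mouse with the lowest sum of enterocyte markers. Vil1 was high in Vil-Cre:NDI1 5 (gap 0.728; 49248 against 41252 to 43428), the mouse with the highest such sum. Mbtps1 was high in Vil-Cre:NDI1 1 (gap 0.711; 967 against 798 to 847), as was Gmfg, a gene chosen because it followed Egfr (gap 0.741; 89.2 against 46.5 to 57.5). Btc was low in Vil-Cre:NDI1 2 (gap 0.838; 35.5 against 42.1 to 43.4).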

How the results depend on the processing

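With all 10 mice, 0 of the 6 genes passed an adjusted p under 0.05 under any alternative with limma, DESeq2 or edgeR. With 1 mouse left out, a setting run with limma only, 0 of the 6 passed as well. Ada, Nt5e, Slc28a2, Creb3l3 and Egfr kept their direction in all of these fits. With each mouse left out in turn, the log2 difference ran from 0.21 to 0.56 for Ada, 0.19 to 0.45 for Nt5e, 0.18 to 0.42 for Slc28a2, 0.30 to 0.41 for Creb3l3, -0.41 to -0.28 for Egfr and -0.066 to 0.18 for Klf4. Klf4 was at -0.030 with equal totals and -0.23 relative to enterocyte markers, scalings that moved all genes alike (its difference from the median of all genes was 0.028 before, 0.027 and 0.026 after), and turned to -0.035 with array weights, and -0.055 and -0.062 with DESeq2 and edgeR on 8 libraries. The count of all genes called was 2 with a minimum of 50, 2 with array weights, 31 with DESeq2, 276 with DESeq2 on 8 libraries and 1 to 3 with a mouse left out, against 1. DESeq2 on the 8 libraries without Vil-Cre 3 and 4, a choice made after seeing the data, called 1 of the 6 genes, Creb3l3 (0.45), and edgeR on the same libraries called 0 (Creb3l3 adjusted p = 0.375). The replicate block gave 1 gene called and 0 of the 6, and same-numbered mice did not deviate together (r from -0.12 to 0.14). Of 15 pairs, 3 were correlated past the threshold, but 1 with values centred within genotype and 1 to 3 with a mouse left out, a setting also added after seeing the data (1 without Vil-Cre 4, Vil-Cre 5 or Vil-Cre:NDI1 2); equal totals gave Ada and Slc28a2 an r of 0.74, and enterocyte scaling 0.68. The cause of these changes was not tested. Depth limits the genes with few reads. Of the 6 genes, counting error was largest for Egfr, at 4.97% against 11.1% observed within genotypes.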

Other observations

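Genes of other villus zones were compared with the 6 villus tip genes in each mouse as a description. Among 8 genes of the lower villus, 0 passed the adjusted threshold with limma and all 8 had a log2 difference above 0. The antimicrobial lectin Reg3b had 1887 to 21635 normalized counts in Vil-Cre mice and 10305 to 31865 in Vil-Cre:NDI1 mice, a log2 difference of 1.23 (SE 0.56). Its relative Reg3g had 1152 to 11539 and 3480.0 to 18385. The mean log2 value of the 6 tip genes minus that of the lower villus genes had a median of 1.43 in Vil-Cre mice, with a range of 0.25 to 2.23, and of 1.08 in Vil-Cre:NDI1 mice, with a range of 0.58 to 1.33, so the Vil-Cre mice spanned the wider range and enclosed the other genotype.

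Among 7 middle villus genes, 0 passed the adjusted threshold and all 7 had a difference above 0. Slc7a7, which exports cationic amino acids, differed by 0.21 (SE 0.092), the fructose carrier Slc2a5 by 0.45 (SE 0.21) and the glucose carrier Slc5a1 by 0.30 (SE 0.15). Tip minus middle values were -1.06 to -0.16 in Vil-Cre mice and -0.86 to -0.55 in Vil-Cre:NDI1 mice. Of 5 further tip genes, 3 had a difference above 0 and 2 below, with a median of 0.038. Krt20, a keratin of differentiated enterocytes, differed by 0.21 (SE 0.13) and Apoa4, an apolipoprotein of chylomicrons, by 0.39 (SE 0.37), and 0 passed the adjusted threshold.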
